A study of Mus musculus with 12 samples.

Results

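The Hippo pathway was examined through 10 of its genes, chosen by name from the 55401 rows of the gene count table: the kinases Stk3, Stk4, Lats1 and Lats2, the adaptors Sav1, Mob1a and Mob1b, the coactivators Yap1 and Wwtr1, and the DNA-binding partner Tead1. Each symbol was matched to 1 Ensembl identifier, so that all 10 genes were followed in all 12 libraries. The libraries were made from laser-captured mouse oocytes, with 3 libraries in each of 4 groups: oocytes of primordial follicles cultured as controls, oocytes of primordial follicles cultured with dorsomorphin (DM), and the same pair of conditions for oocytes of primary follicles. Primordial follicles hold a dormant oocyte within flattened pregranulosa cells, and primary follicles have begun to grow. DM, also known as compound C, is a small molecule inhibitor of the energy-sensing kinase AMPK that also blocks BMP type I receptors, and it was used in the study to ask how AMPK controls follicle activation.

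All ovaries came from female F1 mice of a C57Bl/6j x CBA/J cross (C57BL/6JRj and CBA/JRj in the study's methods) aged 7 to 8 days, and the labels name no transgene or deletion. Per the study's methods, the ovaries were cultured for 5 days with the solvent DMSO (the controls) or with DM, then fixed, embedded in paraffin, sectioned and stained. The oocytes were cut out by morphology, 200 were pooled for each library, and the RNA was amplified before sequencing. The labels call the control libraries sham and mark samples as in vivo, while the methods describe cultured ovaries. The samples were described as biologically independent in the study, but no label ties a library to an animal, so the p-values below measure the spread between these libraries.

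In the Hippo pathway, MST kinases (encoded by Stk4 and Stk3) bound to the scaffold SAV1 phosphorylate LATS1 and LATS2, which act together with MOB1 proteins. Active LATS kinases phosphorylate YAP and TAZ (encoded by Yap1 and Wwtr1) and hold them in the cytoplasm, and when this kinase cascade is off, YAP and TAZ enter the nucleus and drive transcription with TEAD factors. In the ovary, disruption of Hippo signalling by cutting or fragmentation is known to favour follicle growth. Most of this control acts on protein phosphorylation and location, which RNA counts do not measure.

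TEAD factors bind a short DNA motif, GGAATG, which reads CATTCC on the other strand, and the promoters of the Hippo genes were searched for these letters because TEAD factors are the DNA-binding partners of the pathway. The RefSeq promoter windows (GRCm38.p6, 250 bases before to 50 bases after an annotated start) covered 8 of the 10 genes, with no entry for Stk3 or Tead1. The motif was present on either strand in a window of 5 of the 8 genes, beside 4481 of 27025 genes (16.6%) in the whole table. Each stretch below is 30 bases on the coding strand of its gene with the motif in capitals.
Yap1, chr9:8004720-8004749, minus strand: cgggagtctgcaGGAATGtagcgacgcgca
Wwtr1, chr3:57576029-57576058, minus strand: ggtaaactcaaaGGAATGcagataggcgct
Mob1a, chr6:83325818-83325847, plus strand: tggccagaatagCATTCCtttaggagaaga
Sav1, chr12:69987091-69987120, minus strand: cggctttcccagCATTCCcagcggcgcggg
Lats2, chr14:57746102-57746131, minus strand: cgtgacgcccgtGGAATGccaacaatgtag
The middle of the motif lay 138 bases before the start of Yap1, 133 or 167 bases before the 2 annotated starts of Wwtr1, 206 bases before that of Mob1a and 103 bases before that of Sav1, and 7 bases past 1 of the 2 starts of Lats2. The windows of Stk4, Mob1b and Lats1 did not hold these letters. A match describes sequence only, and no binding was measured here.

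The libraries held 14034586 to 42639326 counts each, and 28.3% to 71.8% of the genes with more than 3 counts in any library had more than 3 counts in a given one. Of 13 oocyte markers 11 had more than 3 counts in some library of each primordial group, 13 in the primary controls and 9 in the DM-treated primary group. Dazl, Figla, Oosp1 and Sohlh1 did not in the last. The summed level ranged from 7.71 to 1460 CPM (counts per 1000000 counts of the library). It was lowest in replicate 3 of the primary controls, the DM-treated primordial group (16.8 CPM) and the primordial controls (23.0 CPM). In replicate 2 of the DM-treated primary group Ddx4 held 47451 counts and each other oocyte marker at most 55. Replicate 3 of the primary controls had a granulosa marker sum of 8878 CPM, exceeded only by the 14212 CPM of replicate 2 of the DM-treated primary group. Foxl2 and Gatm held most of these counts, with 226837 and 44411 in the first library and 474295 and 131654 in the second. In the second, the other granulosa markers had at most 10 counts. Of 10 granulosa markers 7 or 8 had more than 3 counts in some library of each group, although Cyp19a1 and Fshr did not in any, and of 9 stromal and theca markers, whose sums ran from 2164 to 12531 CPM, 7 to 9 did. Of 8 blood, immune and endothelial markers 2 to 5 did. Markers of cells around the oocyte were thus present in all groups, and in such pooled RNA fewer cells of a type and less RNA per cell cannot be told apart. The part of these other cells in the values below was not tested.

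The Hippo genes were detected in patches. Over the 10 genes and 12 libraries, 79 of 120 values were above 3 counts, the limit that a count of 0 allows, and 42 of 120 were at least 300 counts. In between, 24 values were at 4 to 29 counts and 13 at 30 or more but under 300 counts. All 10 genes passed 3 counts in replicate 1 of the primordial controls, but only 3 did in replicate 3 of the primary controls, where the 10 genes together had 29 counts. The same unevenness held across the transcriptome: among genes with more than 3 counts in at least 3 libraries, 38.3% of values were at 0 to 3 counts and 27.2% were at 300 or more, beside 34.2% and 35% for the Hippo genes.

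**Figure D1:**
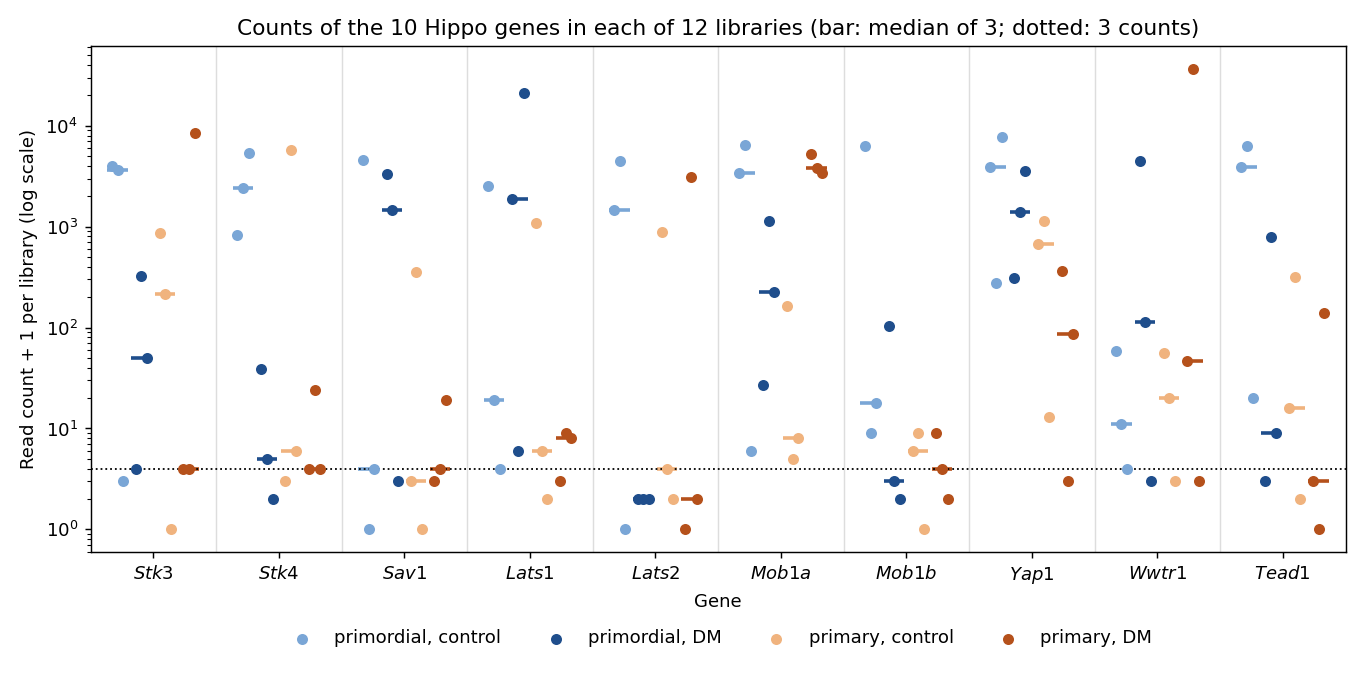
Read counts plus 1 (log scale) of the 10 Hippo genes in the 12 libraries, coloured by group, with a short bar at each group's median and a dotted line at 3 counts. Most genes jump from fewer than 30 to more than 300 counts within a single group, and Mob1a is the gene whose 3 DM-treated primary libraries, at 3417 to 5292 counts, all sit above the 3 primary controls, at 4 to 163.

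Detection was broadest in control oocytes of primordial follicles, where 24 of 30 gene and library pairs passed 3 counts. It was 20 of 30 in DM-treated oocytes of primordial follicles and 20 of 30 in control oocytes of primary follicles. In DM-treated oocytes of primary follicles it was 15 of 30, with 4 to 6 of the 10 genes per library. The share of all genes over 3 counts was likewise highest in the primordial controls (47.6% to 71.8%) and low in the DM-treated primary group (31.4% to 35.7%). The number of Hippo genes seen thus went with library breadth between these groups, but loosely by library. Primordial control replicate 3, at 47.6%, had 5 of the 10 genes. Without replicate 3 of the primary controls, that group had 17 of 20 pairs above 3 counts.

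**Figure D2:**
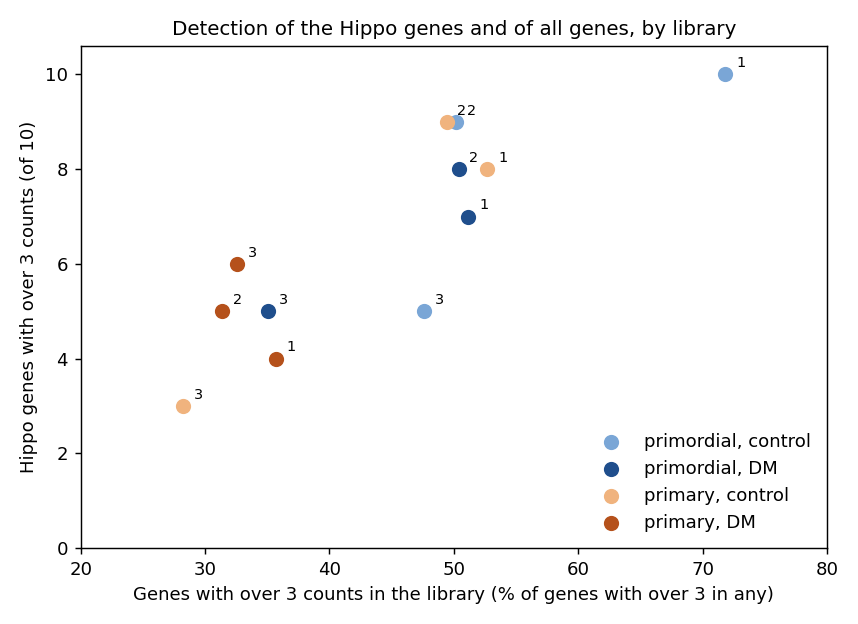
Number of the 10 Hippo genes with more than 3 counts (vertical axis) against the percent of genes with more than 3 counts in the library, out of all genes that passed 3 counts in any library (horizontal axis), 1 point per library labelled by replicate. Libraries with broader detection tended to hold more Hippo genes, from 3 genes at 28.3% to 10 genes at 71.8%. The relation was loose, with 5 genes at 47.6% and 9 at 49.4%.

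The 3 components of the upstream kinase complex showed the most ordered difference in Stk4, in primordial follicles. Stk4 (ENSMUSG00000018209.15, chr2:164070322-164155524 on GRCm38, plus strand), which encodes the kinase MST1, had 821, 2426 and 5414 counts in the primordial controls and 38, 4 and 1 counts after DM. Every control was above every DM library, a separation that 13.0% of all genes tested in this comparison also had in 1 direction or the other. The summed level of the granulosa markers separated the same groups, at 975 to 2331 CPM in the controls and 191 to 777 CPM after DM. By single markers, Foxl2 (40701, 39034 and 4197 against 97, 656 and 61 counts) and Nr5a2 did so, while Gatm, Inha, Inhba, Kitl, Fst and Amh overlapped. Of 10 markers, 8 and 7 were over 3 counts in some library of these groups, Cyp19a1 and Fshr in none. The part of these markers in the Stk4 difference was not tested. The fitted log2 fold change was −8.39 ± 4.05 (SE, n = 3 and 3), with an unadjusted p of 0.0386 and an adjusted p of 0.658 (edgeR's quasi-likelihood test, Benjamini-Hochberg), so the difference did not pass the threshold of 0.05. DESeq2 gave Stk4 a log2 fold change of −8.57 with an adjusted p of 0.000181, while adjusted p-values over all alternatives ran up to 0.999. DESeq2 called 9.70% of all genes in this comparison. In primary follicles Stk4 was high in 1 library only, with 2, 5797 and 5 counts in the controls against 3, 23 and 3 counts with DM. It was below the filter on low counts there, and without control replicate 2 its fitted log2 fold change turned from −6.42 to 1.28.

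Stk3 (ENSMUSG00000022329.15, chr15:34875496-35178921, minus strand), which encodes the related kinase MST2, had 4025, 3670 and 2 counts in the primordial controls and 3, 322 and 49 counts after DM. Among primary follicles, the controls had 873, 213 and 0 counts of Stk3 and the DM libraries 3, 3 and 8384. The groups overlapped in both stages, with log2 fold changes for DM of −3.50 ± 3.28 and 4.51 ± 3.48. The adjusted p-values were 0.809 and 0.498 (edgeR's quasi-likelihood test, Benjamini-Hochberg). The value in primary follicles rested on DM replicate 3, without which it was −5.18.

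Sav1 (ENSMUSG00000021067.8, chr12:69965012-69987002, minus strand), the scaffold of the MST kinases, had 4569, 0 and 3 counts in the primordial controls and 3352, 1447 and 2 counts after DM. Primary controls had 2, 357 and 0 counts and DM-treated primary libraries 2, 3 and 18. High and near-zero libraries were present in both primordial groups, and the log2 fold change for DM there was 1.12 ± 3.02 with an adjusted p of 0.958 (edgeR's quasi-likelihood test, Benjamini-Hochberg). Without control replicate 1 it was 8.99. The exons of Sav1 overlap those of Atl1 on the opposite strand, and 24.7% of the 50-base words of Sav1 transcripts also occur there on either strand. Atl1 had 802 counts in replicate 1 of the primordial controls and at most 4 in any other library, so the other high Sav1 values had no matching Atl1 counts.

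The LATS kinases were high in single libraries of several groups. Lats1 (ENSMUSG00000040021.13, chr10:7681214-7716460, plus strand) had 2514, 18 and 3 counts in the primordial controls and 1870, 5 and 20907 counts after DM. Its counts in primary follicles were 1074, 5 and 1 without DM against 2, 8 and 7 with it. The log2 fold change for DM in primordial follicles was 5.34 ± 2.70 with an unadjusted p of 0.0484 and an adjusted p of 0.658 (edgeR's quasi-likelihood test, Benjamini-Hochberg). The groups overlapped, and without DM replicate 3 the fold change was 0.96. In primary follicles the gene was below the filter, with a value of −4.01 ± 3.75 in a fit without the filter that became 1.51 without control replicate 1.

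Lats2 (ENSMUSG00000021959.16, chr14:57689662-57758388, minus strand) had 1450, 4509 and 0 counts in the primordial controls and 1 count in each of the 3 DM libraries. Summed over libraries and scaled by total counts, this was 2077-fold lower after DM, with a 95% interval from 710 to 10075 that covers counting error only. The interval was 293 to 4172 around 859-fold without control replicate 2. Because the third control had 0 counts, the groups overlapped and Lats2 did not pass the filter for the test. A fit without the filter gave an unadjusted p of 0.0311 and an adjusted p of 0.457 (edgeR's quasi-likelihood test, Benjamini-Hochberg), and DESeq2 in such a fit gave 0.00973, within a range over alternatives up to 0.985. Primary controls had 885, 3 and 1 counts of Lats2 and DM-treated primary libraries 0, 3090 and 1, with 1 high library on each side.

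Reads on the exons that Lats2 shares with a neighbouring gene cannot be assigned to either gene. Gm49361, annotated as protein coding at chr14:57642077-57746103 on the same strand, shares exons with Lats2, and 41.2% of the 50-base words of Lats2 transcripts also occur in it. Gm49361 had 1788 and 4713 counts in the 2 primordial controls in which Lats2 was high, 878 counts in the high primary control and 3090 counts in the high DM-treated primary library. The other libraries had at most 2 counts of Gm49361, except 41 in DM replicate 2 of primordial follicles, in which Lats2 had 1.

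**Figure D3:**
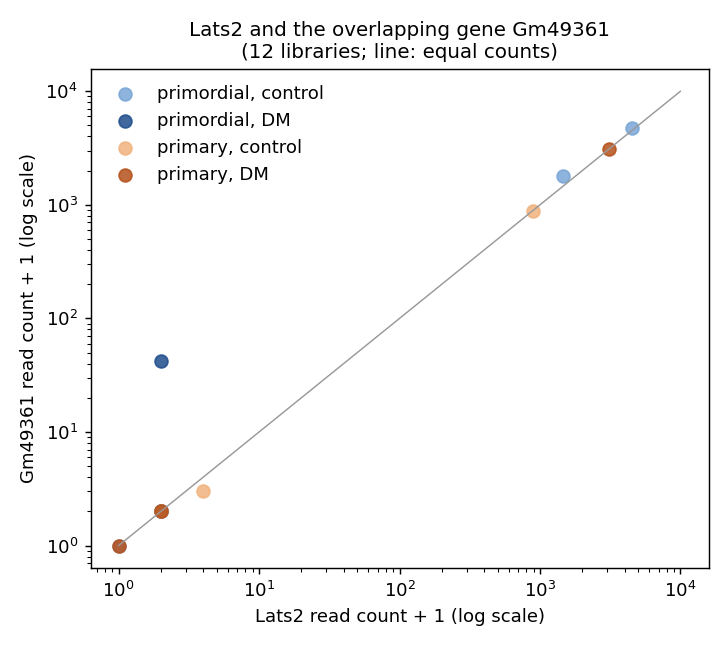
Read count plus 1 of Gm49361 (vertical axis) against that of Lats2 (horizontal axis) in the 12 libraries, both on log scales, with a line at equal counts. The 4 libraries with 885 or more Lats2 counts lie close to the line, and 1 DM-treated primordial library lies above it at 41 counts of Gm49361.

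Mob1a gave the clearest pattern for DM in primary follicles. Mob1a (ENSMUSG00000043131.14, chr6:83326016-83343776, plus strand), an adaptor that binds and activates LATS kinases, had 163, 4 and 7 counts in the primary controls and 5292, 3775 and 3417 counts after DM. On the CPM scale the controls were at 4.78, 0.285 and 0.225 and the DM libraries at 192, 88.5 and 97.4, a mean of 1.76 ± 2.61 and 126 ± 57.6 (SD, n = 3 each). All 3 DM libraries were above all 3 controls, as for 13.0% of the genes tested in this comparison in either direction. The log2 fold change was 7.59 ± 4.10 (SE) with an unadjusted p of 0.0638 and an adjusted p of 0.396 (edgeR's quasi-likelihood test, Benjamini-Hochberg), so it did not pass the threshold. Leaving out each library in turn kept it between 7.05 and 8.97. Without control replicate 3, the library with the lowest oocyte marker sum, it was 7.53. The summed levels of oocyte, granulosa and stromal markers overlapped between these groups. DESeq2, which called 16.7% of all genes in this comparison, gave 9.02 with an adjusted p of 6.23e-05, while the adjusted p-values of the alternatives ran up to 0.999.

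The primordial controls had 3413, 6487 and 5 counts of Mob1a, and the DM libraries of that stage had 26, 1150 and 226. These groups overlapped, with a log2 fold change of −2.10 ± 3.11 and an adjusted p of 0.892 (edgeR's quasi-likelihood test, Benjamini-Hochberg). The difference between the stages in the response to DM, tested as an interaction over the 12 libraries, was 9.88 ± 4.51 for Mob1a, with an unadjusted p of 0.0285 and an adjusted p of 0.221 by the same test. It stayed between 8.02 and 11.08 when each library was left out. DESeq2 gave 10.63 with an adjusted p of 0.00221 (7.68% of all genes called), in a range over alternatives that reached 0.761.

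Mob1b (ENSMUSG00000006262.15, chr5:88720855-88764220, plus strand), which encodes a near-identical adaptor, did not share this pattern of counts. It had 6298, 8 and 17 counts in the primordial controls and 103, 2 and 1 counts after DM. Primary follicles gave 5, 8 and 0 counts without DM against 8, 3 and 1 with it, so that no primary library had over 8 counts. The log2 fold change for DM in primordial follicles was −4.95 ± 3.37 with an adjusted p of 0.713 (edgeR's quasi-likelihood test, Benjamini-Hochberg), and it was 0.63 without control replicate 1. The coding sequences of the pair, shown here because a shared read could blur the contrast between them, were 77.8% identical over an alignment of 663 columns. Their longest identical run was 20 bases, given in capitals with 5 bases on each side.
Mob1a, coding bases 314 to 343: agccaATTAAGTGTTCTGCACCAAAatata
Mob1b, coding bases 329 to 358: agcctATTAAGTGTTCTGCACCAAAgtata
No 50-base word of Mob1a transcripts occurred in any other gene, and 0.253% of those of Mob1b did. The longest identical runs in the coding sequences of the other paralog pairs were also short, with 23 bases for Stk3 and Stk4, 22 for Lats1 and Lats2, and 15 for Yap1 and Wwtr1.

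Yap1 passed 3 counts in 11 of 12 libraries, second to Mob1a, which did in all 12. Yap1 (ENSMUSG00000053110.13, chr9:7931999-8004596, minus strand), the main transcriptional effector of the pathway, had 3858, 275 and 7684 counts in the primordial controls and 307, 1402 and 3584 counts after DM. Primary controls had 675, 1142 and 12 counts of Yap1 and DM-treated primary libraries 360, 2 and 86. In both stages the ranges overlapped, with log2 fold changes for DM of −0.84 ± 2.65 and −1.31 ± 2.72. The adjusted p-values were 0.966 and 0.808 (edgeR's quasi-likelihood test, Benjamini-Hochberg). Neither direction was stable, since the first was 1.51 without control replicate 3 and the second was 0.84 with DESeq2 size factors. All 6 primordial libraries had at least 275 counts of Yap1.

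Wwtr1 (ENSMUSG00000027803.14, chr3:57455649-57575910, minus strand), which encodes TAZ, had low counts in most libraries and was high in single DM libraries. It had 58, 10 and 3 counts in the primordial controls and 4505, 113 and 2 counts after DM. Primary controls had 55, 19 and 2 counts of Wwtr1, against 46, 36576 and 2 in the DM libraries of that stage. The groups overlapped in both stages, and only DM libraries exceeded 58 counts. The log2 fold change was 6.57 ± 3.71 in primordial follicles, with an adjusted p of 0.658, and 10.49 ± 4.58 in primary follicles, with an unadjusted p of 0.0220 and an adjusted p of 0.395 (edgeR's quasi-likelihood test, Benjamini-Hochberg). Each value rested on 1 library. It was 2.25 in primordial follicles without DM replicate 1 and 1.00 in primary follicles without DM replicate 2. The latter library had the highest granulosa marker sum, which came from Foxl2 and Gatm. DESeq2 gave the primordial difference an adjusted p of 0.00636, in a range over alternatives that reached 0.999.

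Tead1 (ENSMUSG00000055320.18, chr7:112679318-112906807, plus strand), a DNA-binding partner of YAP and TAZ, had 3913, 6266 and 19 counts in the primordial controls and 2, 796 and 8 counts after DM. Among primary follicles the counts of Tead1 were 15, 314 and 1 without DM and 2, 0 and 140 with DM. The highest values were in 2 of the 3 primordial controls, but the third control was below DM replicate 2. The log2 fold changes for DM were −3.09 ± 3.24 and −0.42 ± 2.43, with adjusted p-values of 0.837 and 0.933 (edgeR's quasi-likelihood test, Benjamini-Hochberg). The second value was 2.17 with DESeq2 size factors.

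Over the 10 genes, DM left no Hippo gene past an adjusted p of 0.05 by edgeR's quasi-likelihood test in either stage. In primordial follicles 9 genes were tested, 6 with a log2 fold change below 0 and 3 above, while 52.0% of all 6699 genes tested were above 0. The median of the 9 genes was −2.10 beside 0.13 over all genes. Leaving out 1 library moved the median to −3.94 (without DM replicate 2) or −1.26 (without control replicate 1). At an unadjusted p under 0.05 there were 2, Stk4 lower and Lats1 higher, beside 7.33% of all genes, and 0.0149% of all genes passed after adjustment. In primary follicles 5 genes were tested, 3 above 0 and 2 below, while 52.6% of all 4181 genes were above 0. The median of the 5 genes was 4.51 beside 0.31 over all genes. This median had no stable sign, since it was −2.47 without DM replicate 3, −0.83 without control replicate 1 and −0.77 without control replicate 3, fits in which other numbers of Hippo genes passed the filter. Wwtr1 alone had an unadjusted p under 0.05, beside 12.2% of all genes, and 0% of genes passed after adjustment. DESeq2 called 2 of the 9 genes in primordial follicles (Stk4 and Wwtr1) and 1 of the 5 in primary follicles (Mob1a). It called 650 (9.70%) and 698 (16.7%) of all genes that passed the filter. No p-value came from DESeq2 for Lats1 and Mob1b in primordial follicles, or for Wwtr1, Stk3 and Tead1 in primary follicles. These shares count such genes as not called.

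**Figure D4:**
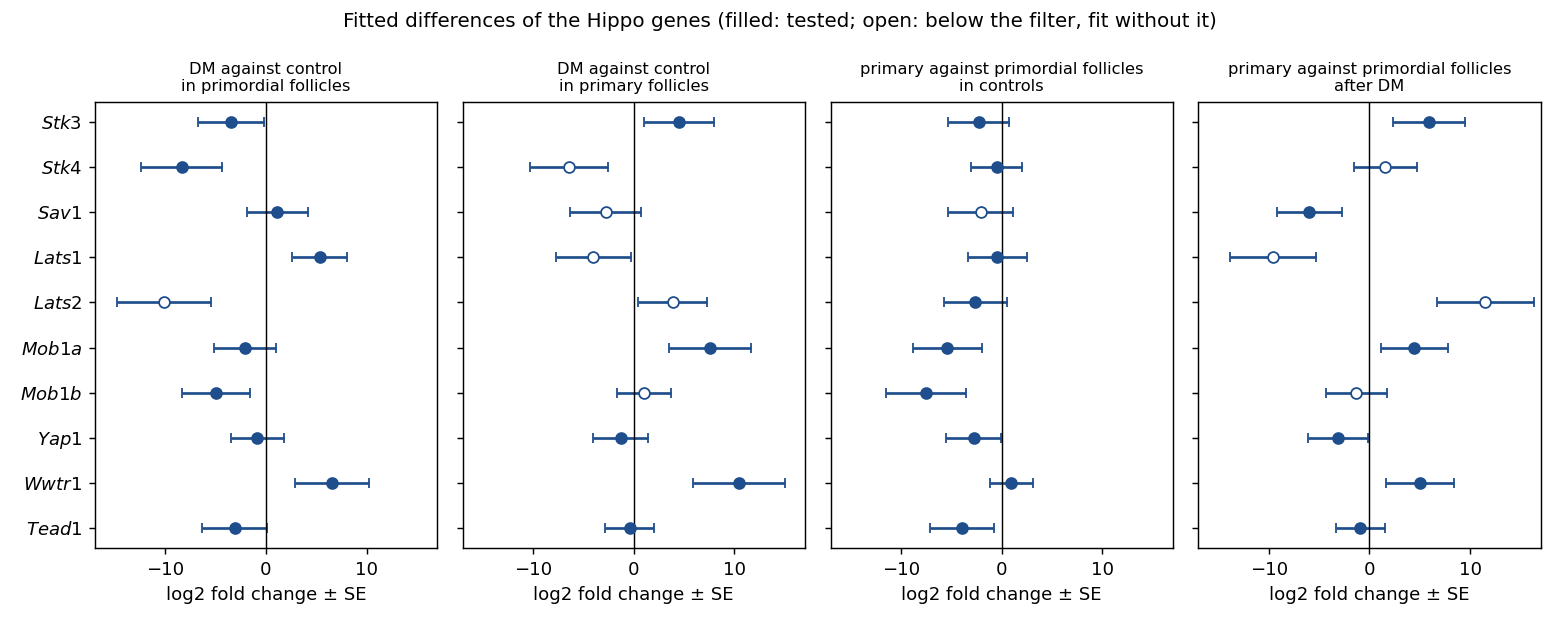
Fitted log2 fold changes of the 10 Hippo genes with standard errors in 4 comparisons (horizontal axes), with filled points for genes that passed the filter on low counts and open points for values from a fit without it. The standard errors are 2.10 to 4.81 log2 units, and the genes scatter to both sides of 0 in the comparisons of DM with control.

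Between stages in controls, the log2 difference of primary from primordial follicles was below 0 for 8 of the 9 Hippo genes tested, while 45.7% of all genes were above 0. The median of the 9 genes was −2.60 beside −0.31 over all genes. Leaving out 1 library moved it to −3.90 (without primary control replicate 2) or −1.86 (without primary control replicate 3). No member passed adjustment. Their adjusted p-values were 0.749 to 0.988 (edgeR's quasi-likelihood test, Benjamini-Hochberg). At an unadjusted p under 0.05 there were 0 of the 9, beside 6.44% of all genes. DESeq2 with adjustment also called 0, beside 4.27% of all genes, but it gave no p-value for Lats1 and Mob1b. The groups did not overlap for 0 of the 9, beside 9.69% of all genes. The largest differences were in the adaptors, −7.52 ± 3.93 for Mob1b and −5.38 ± 3.46 for Mob1a, and Mob1b was −1.71 without control replicate 1 of primordial follicles. Yap1 was −2.78 ± 2.75, Stk3 −2.29 ± 3.06, Lats2 −2.60 ± 3.11 and Tead1 −3.93 ± 3.21. Leaving out each library in turn kept their signs but moved them widely, over −3.90 to −0.46 for Yap1, −3.47 to −1.40 for Stk3, −8.40 to −0.39 for Lats2, −7.81 to −2.52 for Tead1 and −7.03 to −3.66 for Mob1a. Without replicate 3 of the primary controls all 10 genes passed the filter and 7 were below 0.

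After DM, Mob1a was the Hippo gene that separated the stages, with 26, 1150 and 226 counts in primordial and 5292, 3775 and 3417 counts in primary follicles. Such a separation was seen in 18.5% of all genes tested in this comparison. The log2 difference was 4.46 ± 3.32 with an adjusted p of 0.447 by edgeR's quasi-likelihood test (Benjamini-Hochberg), and it stayed between 3.82 and 5.55 when each library was left out. DESeq2, which called 21.6% of all genes here, gave it 6.18 with an adjusted p of 0.00345, in a range over alternatives up to 0.977. Of the 6 genes tested, 3 were above 0 and 3 below, while 53.3% of all genes were above 0. At an unadjusted p under 0.05 there were 0 of the 6, beside 17.2% of all genes. The log2 difference of Sav1, primary minus primordial, was −5.97 ± 3.25, with an adjusted p of 0.314 by the same test. These 2 stage comparisons and the comparisons of DM with control share libraries, so their values are given side by side and are not independent.

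In the interaction of stage and DM, fitted on all 12 libraries, all 10 genes were tested and 0 passed adjustment by edgeR's quasi-likelihood test (Benjamini-Hochberg), as for 0% of the 8500 genes. Lats2 (14.12 ± 5.15, unadjusted p of 0.0061, adjusted p of 0.146), Mob1a and Lats1 (−9.33 ± 4.47, unadjusted p of 0.0366, adjusted p of 0.238) were the 3 genes with an unadjusted p under 0.05, beside 18.9% of all genes. The value of Lats2 was 2.90 without DM replicate 2 of primary follicles, the only DM library in which it was high. It was 19.76 without control replicate 1 of primary follicles. That of Lats1 was −3.73 without control replicate 1 of primary follicles. DESeq2 called Mob1a alone among the 10, beside 7.68% of all genes, and gave no p-value for Wwtr1, Lats1, Lats2 and Stk3.

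Per kilobase of exon, the median level over the 12 libraries was highest for Mob1a (4.56 CPM per kb), Yap1 (1.78 CPM per kb) and Stk3 (0.945 CPM per kb). Wwtr1 followed at 0.302 CPM per kb, then Tead1 at 0.0625, Stk4 at 0.0597, Lats1 at 0.0381, Sav1 at 0.0279, Mob1b at 0.0121 and Lats2 at 0.00571 CPM per kb. No neighbours in this order differed beyond their spread, since the ranges overlapped for every neighbouring pair and the higher-ranked gene was above the next in 5 to 8 of the 12 libraries. By the mean instead of the median, Wwtr1 came first at 17.2 CPM per kb, because of 1 library with 179 CPM per kb. The order also changed between groups. In the primordial controls the medians ran from Mob1a (18.8 CPM per kb), Stk3 (16.2), Stk4 (11.2), Yap1 just below it, Tead1 (7.62) and Lats2 (5.50) down to Mob1b, Lats1, Wwtr1 and Sav1 at 0.0748 or less, whereas Sav1 (7.88 CPM per kb) and Lats1 (6.70) came first after DM in that stage. The summed level of the 10 genes was 775 ± 121 CPM in the primordial controls, 531 ± 562 after DM, 224 ± 296 in the primary controls and 524 ± 435 after DM (SD, n = 3 each). With TMM factors computed once over the 12 libraries, which are not those of each test, the order changed. The sums were then 413 ± 114, 483 ± 579, 98.0 ± 112 and 1690 ± 1932 CPM, and the DM-treated primary group was highest through its replicate 2 at 3903 CPM. On both scales the spread was narrow relative to the mean in the primordial controls only, although different genes made up the sum in each library, with 16 of the 30 values there at 300 counts or more.

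Among 6930 genes compared, the counts of Rnf44 and Atp5a1 followed Yap1 most closely across the 12 libraries, with root mean square differences of 1.35 and 1.40 after centring each gene's log2(CPM + 1). The other Hippo genes differed from Yap1 by 2.74 (Mob1b) to 4.73 (Wwtr1) on that scale. Rnf44 encodes a RING finger protein and Atp5a1 a subunit of mitochondrial ATP synthase.

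Other genes of the pathway were also uneven between libraries, to differing degrees. Among 19 upstream regulators 30.7% of values were at 0 to 3 counts and 38.6% at 300 or more, and among 10 target genes of YAP and TAZ 55.8% and 14.2%. Of the 19 upstream regulators, such as the MAP4K and TAO kinases that also activate LATS, 15 were tested in primordial follicles (6 above 0 and 9 below) and 12 in primary follicles (9 above and 3 below), and 0 passed by edgeR's quasi-likelihood test (Benjamini-Hochberg) in either. At an unadjusted p under 0.05 there were 1 and 0, beside 7.33% and 12.2% of all genes, and DESeq2 with adjustment called 1 of 15 and 2 of 12, beside 9.70% and 16.7%. These genes, named after their values were seen, were Limd1 (unadjusted, log2 fold change −8.74, high in 1 control with 10875 counts) and, by DESeq2, Ptpn14 in primordial and Dchs1 and Taok2 in primary follicles. Their median log2 fold changes were −1.80 and 2.25, beside 0.13 and 0.31 over all genes. Map4k4, a kinase that can phosphorylate LATS directly, had 25684, 10117 and 180 counts in the primary controls and 30469, 187382 and 28650 counts after DM. Its CPM groups did not overlap in that comparison, as for 13.0% of all genes tested. The log2 fold change was 4.36 ± 2.97, with an adjusted p of 0.457 by edgeR's quasi-likelihood test (Benjamini-Hochberg). Map4k4 had at least 180 counts in every library, while each of the 10 Hippo genes had a library at 5 counts or fewer. Taok1, a TAO kinase, had 32348, 13572 and 56 counts in the primary controls against 320, 198567 and 50 with DM. Wwc2, a KIBRA family scaffold, had 15192, 391 and 2508 against 974, 115356 and 3572. Both overlapped between groups and were highest in DM replicate 2.

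The other TEAD genes and the VGLL cofactor genes had low counts in most libraries, with 83.3% of 84 values at 0 to 3 counts and 2 values at 300 or more, both of Tead2 (771 in DM replicate 2 of primordial follicles and 476 in control replicate 1 of primary follicles). Tead3 reached 250 counts and Vgll4 reached 26. Of these 7 genes 0 passed the filter for DM in primordial and 1 in primary follicles. Of the 10 YAP and TAZ target genes, 3 were tested in primordial and 2 in primary follicles, and 0 passed by edgeR's quasi-likelihood test (Benjamini-Hochberg). At an unadjusted p under 0.05 there was 1 in each, beside 7.33% and 12.2% of all genes, and DESeq2 called 1 of 3 and 0 of 2, beside 9.70% and 16.7%. In primordial follicles the gene was Birc5 in both tests, an apoptosis inhibitor named after its values were seen, with 17, 39 and 16 counts in the controls against 2, 0 and 0 with DM, and in primary follicles it was Amotl2. Amotl2, an angiomotin that binds YAP, had 19, 14 and 6 counts in the primary controls and 15, 97723 and 51 after DM. Its log2 fold change was 12.23 ± 4.52 with an adjusted p of 0.395, and the high value came from DM replicate 2, the library in which Wwtr1 had 36576 counts. Axl, a receptor tyrosine kinase, had 8153, 5551 and 14 counts in the primary controls and 173, 56 and 8702 after DM, with overlapping groups. Birc2, an inhibitor of apoptosis, had 2746, 3 and 1 counts in the primary controls and 4, 0 and 21887 in the DM libraries, again with 1 high library on each side.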

How the data were processed

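The deposited values are read counts per gene. The authors trimmed the reads, mapped them to mm10 and counted them with featureCounts, without normalization. The processing notes name Trim Galore and STAR, and the paper's methods name TopHat2. TruSeq RNA Access and Smart-seq II preparations are both described, and the strand setting is not given in the sources used here. Members and gene lists were chosen with earlier results of these data known. Of 55401 identifiers 55141 had a symbol. Named were all 10 members and the 3 genes of highest mean CPM per list. Each comparison used the libraries of its groups (3 per group, the interaction all 12) in edgeR 4.0.16 (R 4.3.3): low counts were filtered by filterByExpr, libraries scaled by TMM, and genes tested by glmQLFit and glmQLFTest (prior count 0.125), Benjamini-Hochberg adjustment and a threshold of 0.05. Members below the filter were read from a fit without it. The SE given with edgeR values was derived as the absolute log2 fold change divided by the square root of the test's F statistic. DESeq2 1.42.0, other scalings, filters, a replicate block and leaving out each library were alternatives. The scripts were run on simulated data, with a recovery of changed genes required only at a dispersion of 0.05. The dispersions fitted to these data were 3.10 to 3.62, and no recovery was required at that spread. No pair of libraries in a group agreed within sampling noise (chi-square per degree of freedom of 1146 or more). With 14034586 to 42639326 counts per library, 3 counts were 0.0704 to 0.214 CPM, and intervals and limits cover counting error only, since amplified reads are not independent molecules. Gene positions and exon overlaps came from GENCODE M21 (GRCm38), and promoter windows from RefSeq (GRCm38.p6). Reads overlapping 2 genes may have been counted on both.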

Additional observations from a re-analysis of the deposited data

How the results depend on the processing

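The tests rest on 3 libraries a group with a biological coefficient of variation of 1.76 to 1.90, and on depths at which 3 counts are at most 0.214 CPM. No setting of edgeR called a Hippo gene in any comparison. For DM, DESeq2 called 2 Hippo genes in primordial and 1 in primary follicles. It called 1 for the stages after DM and 1 for the interaction. These were of 9, 5, 6 and 10 that passed the filter, beside 9.70%, 16.7%, 21.6% and 7.68% of all genes. Genes to which DESeq2 gave no p-value are kept in these shares, among them Wwtr1, Stk3 and Tead1 for the stages after DM. Among upstream regulators DESeq2 called 1 of 15, 2 of 12, 4 of 11 (Map4k4, Fat4, Taok2 and Amotl1) and 4 of 16 (Map4k4, Dchs1, Taok2 and Amotl1) in the same order, and 1 of 3 target genes in primordial follicles. The cause of this difference between tools was not tested. Adjusted p-values under 0.05 by DESeq2 were those of Wwtr1 (6.94), Stk4 and Lats2 (−9.66) in primordial follicles and of Mob1a in 3 comparisons. Same-numbered libraries did not deviate together (correlations of −0.0428 to 0.0424), and with the replicate number as a block 0 Hippo genes were called in each comparison, and their median for DM in primary follicles was −0.45. Detection was 113 of 120 values at 1 count or more, 65 at 10 or more, 73 after scaling to the smallest library and 76 of 110 without replicate 3 of the primary controls, the last 2 chosen after seeing the data. A filter of 10 counts in every library left 1 Hippo gene in primordial and 0 in primary follicles.

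Scaling moved the median of all genes, from 0.13 to 0.56 (DESeq2 size factors) or −0.43 (library size alone) for DM in primordial follicles and from 0.31 to 2.04 or −0.96 in primary follicles. Directions turned as follows, and the cause was not tested. For DM in primary follicles, Yap1 was 0.84 and Tead1 2.17 with DESeq2 size factors and with DESeq2, Mob1b −0.85 with library size alone, Tead1 0.067 with all 12 libraries in 1 fit, and with the replicate block Lats1 was 0.30, Lats2 −0.61, Stk3 −4.12 and Sav1 1.16. Between stages, Lats1 was 0.41 in controls, and Mob1b 0.38 and Tead1 0.84 after DM, with DESeq2 size factors and with DESeq2. Under the block Mob1b was 0.24 and Tead1 0.74 after DM, and Stk4 was −0.65 with library size alone. In the interaction Yap1 was 1.40 with DESeq2 size factors and with DESeq2 and 0.12 with TMMwsp, Stk4 −0.54 with library size alone, and Sav1 1.11 with the block.

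Leaving out each library in turn changed the sign of 23 of the 50 values at least once, over these lowest and highest log2 values. For DM in primordial follicles they were Yap1 −2.55 to 1.51 and Mob1b −8.69 to 0.63. For DM in primary follicles they were Yap1 −2.58 to 0.16, Lats1 −4.58 to 1.51, Lats2 −7.22 to 9.48, Stk3 −5.18 to 5.63, Stk4 −8.38 to 1.28, Sav1 −4.41 to 4.23 and Tead1 −6.00 to 3.89. Between stages in controls they were Lats1 −6.06 to 4.87, Stk4 −7.69 to 1.16 and Sav1 −9.22 to 6.12. Between stages after DM they were Wwtr1 −4.69 to 9.52, Stk3 −4.07 to 7.23, Stk4 −0.62 to 3.34, Mob1b −2.13 to 2.22 and Tead1 −6.83 to 3.84. In the interaction they were Yap1 −2.56 to 1.53, Wwtr1 −5.72 to 8.52, Stk3 −1.63 to 9.84, Stk4 −0.017 to 9.36, Sav1 −11.68 to 3.09 and Tead1 −2.75 to 8.22.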
